A study of Mus musculus with 21 samples.

Results

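The serpin genes were taken from the RNA-seq table as every gene whose symbol begins with Serpin, a clade letter from a to i and a digit. The rule found 67 of 37620 genes, in 9 clades. Angiotensinogen (Agt), a serpin whose symbol does not follow the pattern, was left out by the rule and averaged 6.92 ± 3.57 FPKM (SD, n = 4). FPKM count fragments per length of transcript and per depth of library, so levels can be set side by side between genes. The RNA came from C57BL/6J (B6) males, 12 dpp (days post-partum), when early meiotic cells are present in the testis. Testes were digested with collagenase and trypsin, germ cells were enriched, and the samples are labelled spermatocytes. The 12 libraries carry 4 sample numbers (186wt, 343wt, 444wt, 456wt; 3 libraries for each). No treatment is named and there is no contrast of genotype. Values of the 3 libraries sharing a number were averaged, so that n is 4 for every mean ± SD.

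Serpins are a family of folded proteins with an exposed loop that serves as bait for a protease. When the protease cuts the loop, the serpin changes shape and holds the enzyme in an inactive covalent complex, so each serpin molecule is used up with its target. Clade a holds mostly secreted plasma proteins and clade b intracellular inhibitors, while several members, such as collagen chaperones and hormone carriers, inhibit no protease. In the testis, secreted serpins are known from Sertoli cells and the seminal tract, where they meet plasminogen activators and acrosin.

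The labels were checked against marker genes. All 12 meiotic prophase markers found in the table were above 0.1 FPKM, with Sycp3, a component of the synaptonemal complex, at 73.1 ± 18.1 FPKM (SD, n = 4). Of 8 round spermatid markers 5 (62.5%) were above 0.1 FPKM, against 55.3% of all genes. Only 1 reached 1 FPKM, Spaca1 with a mean of 2.09 FPKM, and Prm2 and Spaca3 were at 0. Markers of somatic cells were present too: the 11 Sertoli cell markers found were all above that level and summed to between 2749 and 4760 FPKM in the 4 sample numbers, and Clu, a secreted Sertoli cell glycoprotein, averaged 1844 FPKM. The samples are therefore described here as testis cells enriched for germ cells. Estimated depth was 12.9 to 18.1 M (mega) fragments per library.

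Most serpin genes were silent or nearly so. Of 67 members 23 (34.3%) had a mean of at least 0.1 FPKM, against 55.3% of all genes, and 14 (20.9%) had at least 1 FPKM, against 38.1%. Among protein-coding genes the shares were 36.7% of 60 members and 74.2% of all. Another 20 of 67 members were at 0 in all 12 libraries, a share close to that of all genes (10423 of 37620). Among protein-coding genes these counts were 16 of 60 members and 2728 of 22337. The other 24 members lay between 0 and 0.1 FPKM. At the estimated depth, 0.1 FPKM of a member of median transcript length (1832 bases) corresponds to 28.3 fragments over all libraries, and a count of 0 allows a level of up to 0.0106 FPKM, for counting error only. In the sample numbers taken alone, 21 to 24 members reached 0.1 FPKM.

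The summed level of the family was 315 ± 54.7 FPKM (SD, n = 4), or 0.0656 ± 0.0115% of all FPKM. Few genes made up that sum. Serpina5, Serpinh1 and Serpinb6a held 65.7 ± 5.94% of it, and the 6 highest members held 91.7 ± 0.299%. The highest members came from different clades, so each clade with expression was largely the level of a single gene. Serpina5 made up 91.7% of clade a, Serpinb6a 89.8% of clade b, Serpine2 83.8% of clade e, Serpinf1 99.4% of clade f and Serpini1 99.9% of clade i.

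A clade of 1 gene reached a level near those of the largest clades. Clades a and b, with 28 members each, had 8 and 7 expressed members and summed to 75.6 ± 25.8 and 76.3 ± 14 FPKM (SD, n = 4). Clade h has 1 member, Serpinh1, and reached 68.6 ± 25.9 FPKM. Clades g and f followed with 31.1 ± 15.2 and 30.9 ± 13 FPKM, then clade e with 25 ± 3.48 and clade i with 7.75 ± 1.15 FPKM. The members of clades c and d, the blood clotting inhibitors antithrombin (Serpinc1) and heparin cofactor II (Serpind1), averaged 0.0742 and 0.03 FPKM. Serpind1 lies within Pi4ka on the opposite strand, a gene at 55 FPKM.

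The order of the 3 leading clades was not stable. Clade a led in 186wt and 343wt with 97.9 and 94.8 FPKM, clade b led in 444wt with 62.0 FPKM and clade h led in 456wt with 107 FPKM. In 444wt and 456wt clade a ranked below both others, at 43.2 and 66.4 FPKM. The means of these 3 clades differed by less than the SD of any of them, and those of clades e, f and g by less than the SD of f or g, while clade i ranked 7 in every sample number. When the highest member of every clade was taken out, clade b held 42.3% of what was left and clade a 33.6%.

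**Figure D1:**
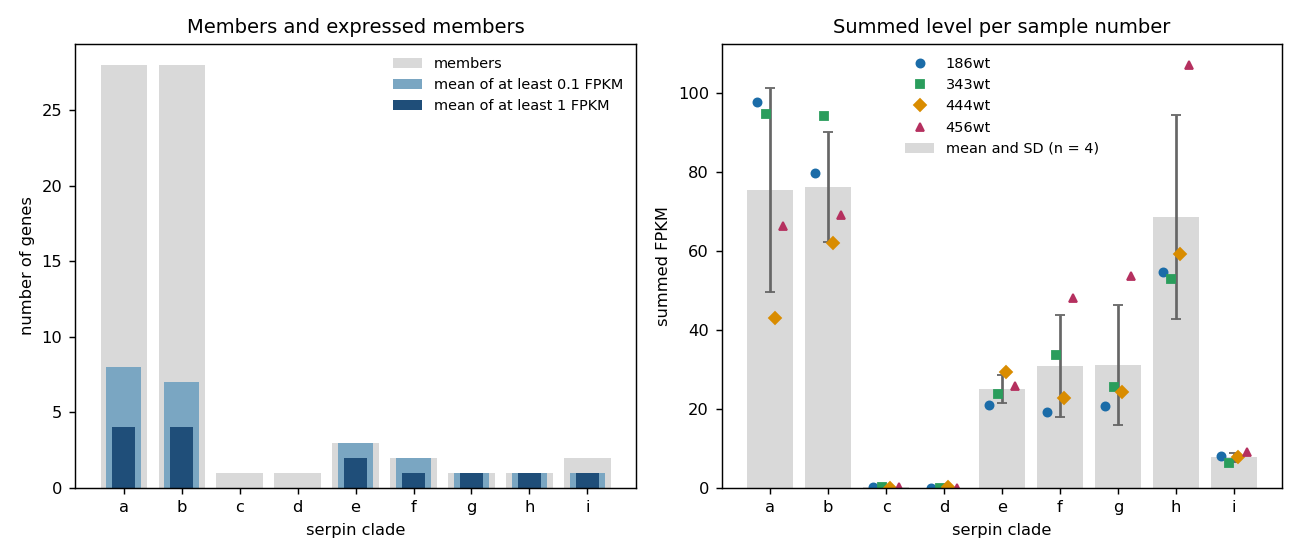
Left, number of serpin genes in each clade, with those reaching 0.1 and 1 FPKM; right, summed FPKM of each clade, with bars for the mean, error bars for the SD (n = 4) and points for the sample numbers. Clades a and b hold 28 genes each, yet their summed levels of 75.6 and 76.3 FPKM are close to the 68.6 FPKM of the single gene of clade h.

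The genes lie mainly in 3 chromosomal clusters. On chromosome 12, 27 clade a genes span 798 kb (chr12:104854885-105652539, NCBI build 37), of which 7 were expressed and 4 had at least 1 FPKM. Serpina5, in the middle of that row, had 69.3 FPKM, and Serpina4-ps1 and Serpina12 just before it were at 0 and 0.0475 FPKM. On its other side, 6586 bases away, Serpina3a had 2.10 FPKM, followed by Serpina3b at 0.168 and Serpina3c at 1.16 FPKM. The 9 genes before Serpina9, which include 6 copies of alpha-1-antitrypsin (Serpina1), ranged from 0 to 0.108 FPKM.

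Clade b is split over chromosomes 13 and 1. On chromosome 13, 16 genes span 1161 kb (chr13:32933961-34094663) with 4 expressed, namely Serpinb1a, Serpinb6b and Serpinb9 near the low end and Serpinb6a at the high end. The genes between Serpinb9 and Serpinb6a, among them 6 of 7 copies of Serpinb9, were at 0.035 FPKM or less, and 5 of these copies were at 0 in every library. On chromosome 1, 12 genes span 748 kb (chr1:108757750-109505486), and the last 3 in order, Serpinb2, Serpinb10-ps and Serpinb8, were the expressed ones. The 4 copies of Serpinb3, known from squamous epithelia, were at 0 throughout. Of the 12 members outside the clusters, 9 were expressed.

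**Figure D2:**
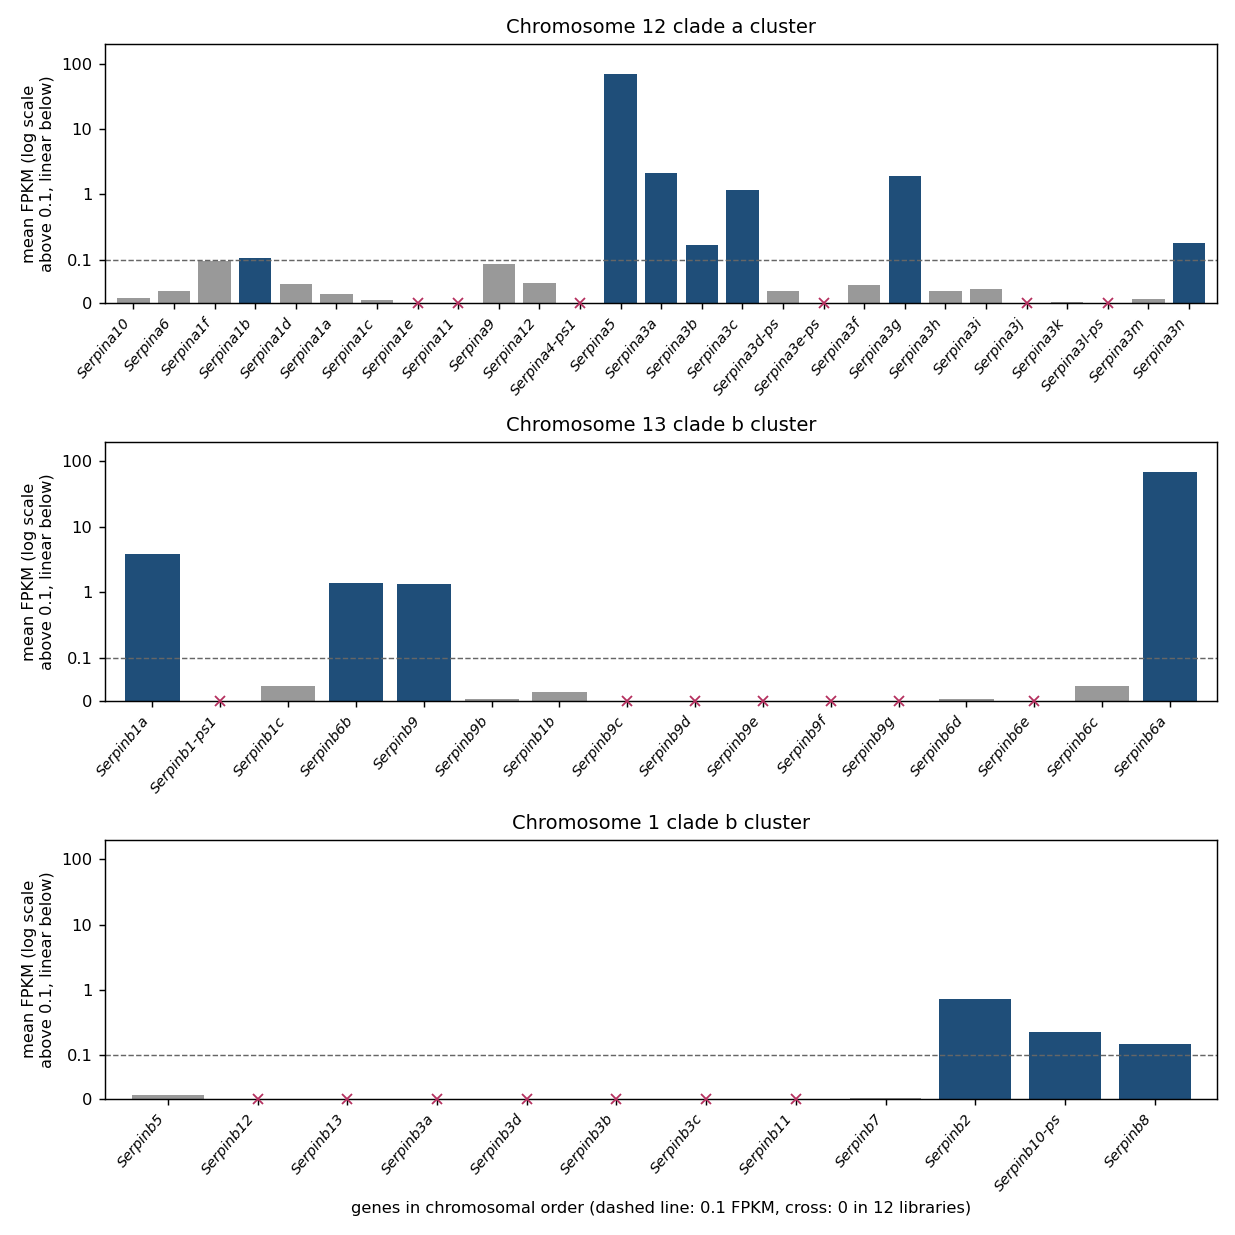
Mean FPKM (4 sample numbers) of serpin genes in chromosomal order in 3 clusters, on an axis that is linear below 0.1 and logarithmic above; blue bars reach 0.1 FPKM, and crosses mark genes at 0 in all 12 libraries. Serpina5 at 69.3 and Serpinb6a at 68.5 FPKM each have a neighbour below 0.1 FPKM.

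Differences between sample numbers were tested with limma's F-test over the 20795 genes that averaged 0.1 FPKM or more, on log2(FPKM + 0.1). The study took RNA from 4 replicates of germ cells, as many as there are sample numbers. The libraries of a number are therefore likely repeats of 1 RNA. The p-values measure the spread between libraries, which would then be technical, and compare these 4 samples only. Of the 23 members tested 15 (65.2%) passed at an adjusted p under 0.05, against a background of 58.2%. All 14 members with at least 1 FPKM passed, against 75.8% of genes at that level. Their median log2 range, from the lowest to the highest sample number, was 1.04, against 0.42 for all genes at that level. Of the 23 members tested, 8 were called and highest in 456wt, 4 in 343wt, 2 in 186wt and 1 in 444wt, where the backgrounds were 16.3, 11, 9.17 and 21.7% of the genes tested. Called and lowest were 6 in 186wt, 6 in 444wt, 3 in 343wt and none in 456wt, against 16.6, 14.0, 19.2 and 8.43%. The counts of the lowest depended on the scaling: with libraries rescaled to 1 median, 2 were lowest in 456wt and none in 343wt. For 9 of the 23 the difference was called and over 1 on the log2 scale, against 10.5% of the genes tested.

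**Figure D3:**
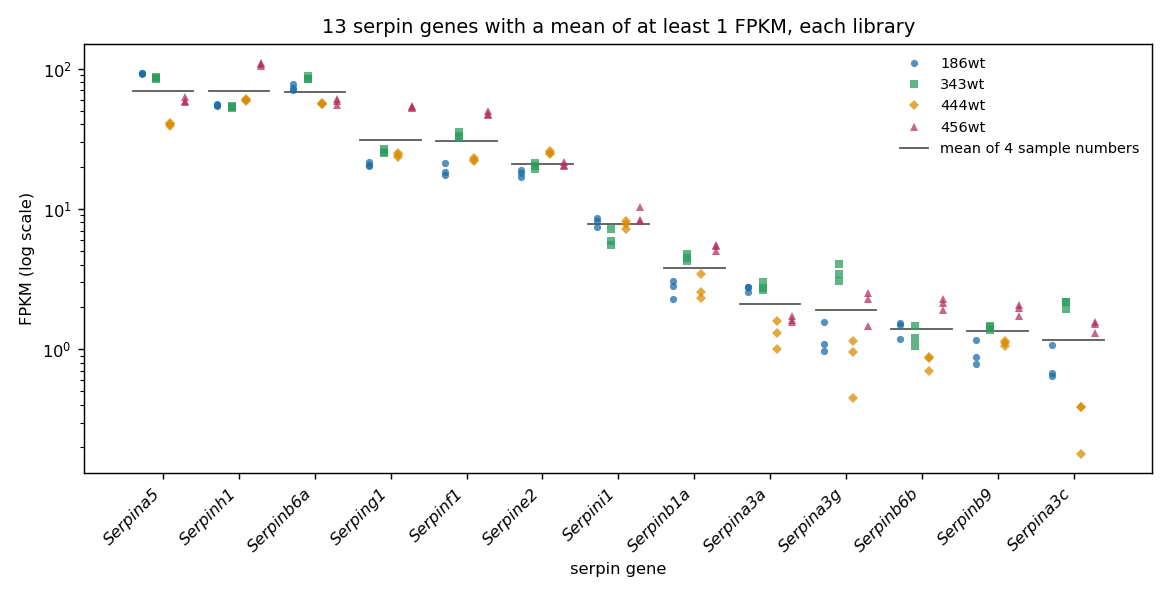
FPKM of 13 serpin genes that averaged 1 FPKM or more (log axis), with a point for each library, coloured by sample number, and a line at the mean of the 4 sample numbers. The libraries of a number spread more in genes near 1 FPKM, and 456wt is apart from the others for Serpinh1 (107 against 53.0 to 59.3 FPKM) and Serping1 (53.6 against 20.9 to 25.7 FPKM).

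Of clade a, Serpina5 was highest in 186wt and its neighbour Serpina3a in 343wt. Serpina5, the protein C inhibitor, which also binds urokinase and acrosin and is needed for male fertility in mice, lies at chr12:105339323-105344347 (ENSMUSG00000041550, plus strand). It had 91.9 FPKM in 186wt, 85.6 in 343wt, 39.9 in 444wt and 59.9 in 456wt. The libraries of 186wt were above all others and those of 444wt below all others, with a log2 range of 1.2 ± 0.0299 (SE) and an adjusted p of 1.37e-10 (limma). Without 444wt the log2 range was 0.62. Serpina3a, its neighbour and a copy of the antichymotrypsin gene, had 2.69, 2.80, 1.3 and 1.63 FPKM in the same order. The libraries of 186wt and 343wt overlapped for Serpina3a and were above those of both other sample numbers (log2 range 1.06 ± 0.142 SE, adjusted p = 9.30e-05, limma).

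A different order was seen further along the same cluster. Serpina3g, an intracellular inhibitor of cathepsins known from immune cells, had 1.2 FPKM in 186wt, 3.51 in 343wt, 0.85 in 444wt and 2.09 in 456wt. Serpina3c had 0.797, 2.08, 0.320 and 1.46 FPKM. For both genes every library of 343wt was above every library of the others, and 456wt was second. The log2 range was 2.0 ± 0.304 (SE) for Serpina3g and 2.42 ± 0.244 (SE) for Serpina3c, with adjusted p of 0.000713 and 2.46e-05 (limma). Without 343wt the range of Serpina3g was 1.25, and without 444wt that of Serpina3c was 1.31. Of the mature transcript sequence of Serpina3g, 2.17% of 100-base windows also occur in protein-coding transcripts of other genes. No other of the 14 members with at least 1 FPKM had such sharing. Transcripts that do not code for protein were not searched.

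Promoters of these genes are given for comparison, since 3 of them belong to the same cluster and differed in their order among the sample numbers. Sequences are the 250 bases before the start in RefSeq, found by exact match in NCBI build 37. Serpina5 is at chr12:105339073-105339322 (plus strand), Serpina3a at chr12:105350684-105350933 (plus), Serpina3g at chr12:105474107-105474356 (plus) and Serpinh1, the highest member outside the clusters, at chr7:106501750-106501999 (minus). Capitals mark matches to motifs searched on both strands: AGAACA (core of the androgen response element) or its reverse TGTTCT in Serpina5 and Serpina3a, TATAAA overlapping its reverse in Serpina3a, TTCNNNGAA (interferon gamma activated site) in Serpina3g and GGGCGG (GC box) in Serpinh1.
Serpina5: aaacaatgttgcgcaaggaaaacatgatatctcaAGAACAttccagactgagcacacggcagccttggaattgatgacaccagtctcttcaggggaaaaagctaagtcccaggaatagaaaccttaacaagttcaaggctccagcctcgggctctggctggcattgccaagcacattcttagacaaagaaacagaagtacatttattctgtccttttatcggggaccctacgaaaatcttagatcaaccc
Serpina3a: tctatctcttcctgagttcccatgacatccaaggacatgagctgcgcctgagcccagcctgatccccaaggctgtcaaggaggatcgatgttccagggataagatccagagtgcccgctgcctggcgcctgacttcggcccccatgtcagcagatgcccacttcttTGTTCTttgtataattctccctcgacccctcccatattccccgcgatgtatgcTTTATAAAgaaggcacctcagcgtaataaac
Serpina3g: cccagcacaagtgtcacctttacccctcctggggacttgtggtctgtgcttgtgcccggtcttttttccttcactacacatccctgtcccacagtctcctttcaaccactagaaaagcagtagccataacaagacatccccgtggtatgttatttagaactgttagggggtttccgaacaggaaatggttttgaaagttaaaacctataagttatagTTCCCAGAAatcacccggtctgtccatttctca
Serpinh1: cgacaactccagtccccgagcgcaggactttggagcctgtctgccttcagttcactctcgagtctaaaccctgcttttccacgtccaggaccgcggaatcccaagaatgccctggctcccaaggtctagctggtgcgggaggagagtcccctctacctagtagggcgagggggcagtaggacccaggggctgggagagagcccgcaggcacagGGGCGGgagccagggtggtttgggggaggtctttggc
The TATAAA of Serpina3a begins 29 bases before the start, in the place where a TATA box is usually found, and Serpina5 has none in this window. Serpina3c had the same order among sample numbers as Serpina3g. Its promoter, which is not printed, matched TATAAA and AGAACA on either strand but not TTCNNNGAA. The motifs therefore did not follow the order among sample numbers in these genes. AGAACA occurs in 35.3% of the 51 members with a promoter in the table and in 16.2% of 27025 promoters. TATAAA occurs in 25.5% against 13%, TTCNNNGAA in 13.7% against 7.18% and GGGCGG in 13.7% against 32.9%. CCAAT occurs in 33.3% of members and 34.5% of all. The GATA site (AGATAA) is in 13.7 and 10.3%, and the steroidogenic factor site (CAAGGTCA) in 1.96 and 1.31%. The heat shock element was found in no member promoter and in 0.4% of all. Member promoters held a median of 2 CpG in 250 bases, against 6 for all. Those of the 11 members with at least 1 FPKM in the table had a median of 5, against 16 for all genes at that level, and ranged from 0 for Serpina3c to 34 for Serpine2. The shares count copies separately, so members are not independent: Serpina1a, Serpina1b, Serpina1c, Serpina1d and Serpina1e all hold AGAACA or its reverse. A match describes the letters only.

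Among intracellular inhibitors of clade b, Serpinb6a was by far the highest. It lies at chr13:34009787-34094663 (ENSMUSG00000060147, minus strand), inhibits cathepsin G, and had 73.5 FPKM in 186wt, 85.9 in 343wt, 56.4 in 444wt and 58.3 in 456wt. The libraries of 343wt were above all others, those of 444wt and 456wt overlapped, and the log2 range was 0.61 ± 0.0402 (SE; adjusted p = 3.57e-07, limma). Without 343wt it was 0.38. Nqo2 (7.78 FPKM) and Ripk1 (11.1 FPKM) overlap it on the opposite strand, and the strand setting of the counting is not given in the sources used here.

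The other clade b genes above 1 FPKM were highest in 456wt. Serpinb1a, an inhibitor of neutrophil elastase, had 2.72, 4.48, 2.75 and 5.30 FPKM in 186wt, 343wt, 444wt and 456wt (adjusted p = 0.000189, limma). Serpinb9, the inhibitor of granzyme B, had 0.947, 1.42, 1.10 and 1.91 FPKM (adjusted p = 0.000793, limma). Serpinb6b, a relative of Serpinb6a, had 1.40, 1.24, 0.813 and 2.11 FPKM (adjusted p = 0.000268, limma). For these 3 genes all libraries of 456wt were above those of the other sample numbers, and the log2 ranges were 0.95 ± 0.143, 0.96 ± 0.148 and 1.27 ± 0.161 (SE). Without 456wt the ranges of Serpinb9 and Serpinb6b were 0.56 and 0.72, and that of Serpinb6b was 0.73 without 444wt. Serpinb2, plasminogen activator inhibitor 2, averaged 0.734 ± 0.125 FPKM (SD, n = 4) with overlapping libraries (adjusted p = 0.646, limma), and it shares 6476 bases with Serpinb10-ps on the same strand.

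The collagen chaperone Serpinh1 and the secreted proteins Serping1 and Serpinf1 were highest in 456wt. Serpinh1 (HSP47), the chaperone of collagen in the endoplasmic reticulum, lies at chr7:106493885-106501740 (ENSMUSG00000070436, minus strand). It had 54.8 FPKM in 186wt, 53.0 in 343wt, 59.3 in 444wt and 107 in 456wt. Serping1, the inhibitor of complement C1 and of plasma kallikrein (chr2:84605544-84615601, ENSMUSG00000023224, minus strand), had 20.9, 25.7, 24.2 and 53.6 FPKM. Serpinf1, the non-inhibitory pigment epithelium-derived factor (chr11:75223271-75236203, ENSMUSG00000000753, minus strand), had 18.9, 33.5, 22.5 and 47.9 FPKM. In all 3 genes the libraries of 456wt were above all others, while for Serpinf1 343wt was second and apart from 186wt and 444wt.

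The log2 ranges were 1.01 ± 0.0222 (SE) for Serpinh1, 1.36 ± 0.0385 for Serping1 and 1.34 ± 0.0653 for Serpinf1. Adjusted p were 3.94e-11, 5.05e-10 and 4.23e-08 (limma). These ranges rest on 456wt: without it they were 0.16, 0.30 and 0.83, and each still passed. Serpinf2, the plasmin inhibitor and the other member of clade f, averaged 0.186 ± 0.0354 FPKM (SD, n = 4; adjusted p = 0.702, limma).

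Serpine2 and Serpini1, which inhibit plasminogen activators, had smaller log2 ranges, 0.48 and 0.52. Serpine2 (protease nexin 1; chr1:79790772-79855271, ENSMUSG00000026249, minus strand), which holds thrombin and the activators at cell surfaces, had 18, 20.1, 25.1 and 20.8 FPKM in 186wt, 343wt, 444wt and 456wt. It was the only called member highest in 444wt (log2 range 0.48 ± 0.0488 SE, adjusted p = 4.41e-05, limma), and without 444wt or 186wt its range was 0.21 or 0.32.

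Serpini1 (neuroserpin), which inhibits tissue plasminogen activator, had 8.10, 6.2, 7.72 and 8.96 FPKM in 186wt, 343wt, 444wt and 456wt. Its libraries overlapped between 186wt and 456wt, and the log2 range was 0.52 ± 0.111 (SE; adjusted p = 0.00896, limma). The call was lost without 343wt (log2 range 0.21, adjusted p = 0.231, limma). It was also lost, with 186wt in place of 456wt as the highest, when libraries were rescaled to 1 median (log2 range 0.31, adjusted p = 0.0724, limma).

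The last called member was near the limit of detection. Serpina1b had 0.303 FPKM in 186wt and 0.03, 0.0667 and 0.0333 FPKM in the others (adjusted p = 0.0342, limma). Of its 100-base windows, 24.6% occur in protein-coding transcripts of other genes, mainly Serpina1c. The call was lost without library 1 of 186wt (adjusted p = 0.129, limma). It was lost too without library 1 or 3 of 343wt (adjusted p = 0.0585 and 0.0588) and without library 1 or 2 of 456wt (0.0557 and 0.0547).

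Markers of other cell types moved with the same sample numbers. In a bulk sample, fewer cells of a type and less RNA per cell cannot be told apart. Serpina5 and Serpina3a were high in 186wt and 343wt, where the 11 Sertoli cell markers summed to 4566 to 4598 and 4748 to 4766 FPKM in the libraries, against 2743 to 2754 in 444wt and 2894 to 2923 in 456wt. All 11 were called, 5 highest in 186wt, 5 in 343wt and 1 in 444wt. The last was Dmrt1, which had its lowest value in 186wt, and Clu alone made up a large part of each sum. Serpina3g and Serpina3c were highest in 343wt and lowest in 444wt, as was the sum of the 7 Leydig cell markers, at 119 to 121 and 15.6 to 17.8 FPKM (186wt 58.2 to 60.8, 456wt 62.8 to 70.8). The sum of the 8 macrophage markers had the same order, with 40.5 to 43.2 FPKM in 343wt, 34.5 to 34.6 in 456wt, 20.8 to 21.3 in 186wt and 9.19 to 11.1 in 444wt. Of 7 macrophage markers called, 5 were highest in 343wt and 2 in 456wt.

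Serpinh1, Serping1 and Serpinf1 were highest in 456wt, where 6 fibroblast markers summed to 987 to 1002 FPKM, against 279 to 404 in the libraries of the other sample numbers. The 8 endothelial markers gave 68.2 to 70.6 FPKM there, against 34.1 to 42.7, and the 7 peritubular myoid markers 1676 to 1705, against 413 to 1040. Most of the fibroblast sum was Col1a2, Col3a1 and Col1a1, at 356, 266 and 246 FPKM in 456wt. These 3 are also on the list of collagens and folding partners of Serpinh1. Of the 6 fibroblast markers 5 were highest in 456wt, and Dcn was highest in 343wt (91.1 against 87.1 FPKM in 456wt). No marker of these 6 lists was at 0. The germ cell lists had another order: 7 of 9 spermatogonial and 10 of 12 meiotic prophase markers were highest in 444wt. Of all called genes, 37.4% were highest in 444wt. The part of cell makeup in the serpin values was not tested.

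**Figure D4:**
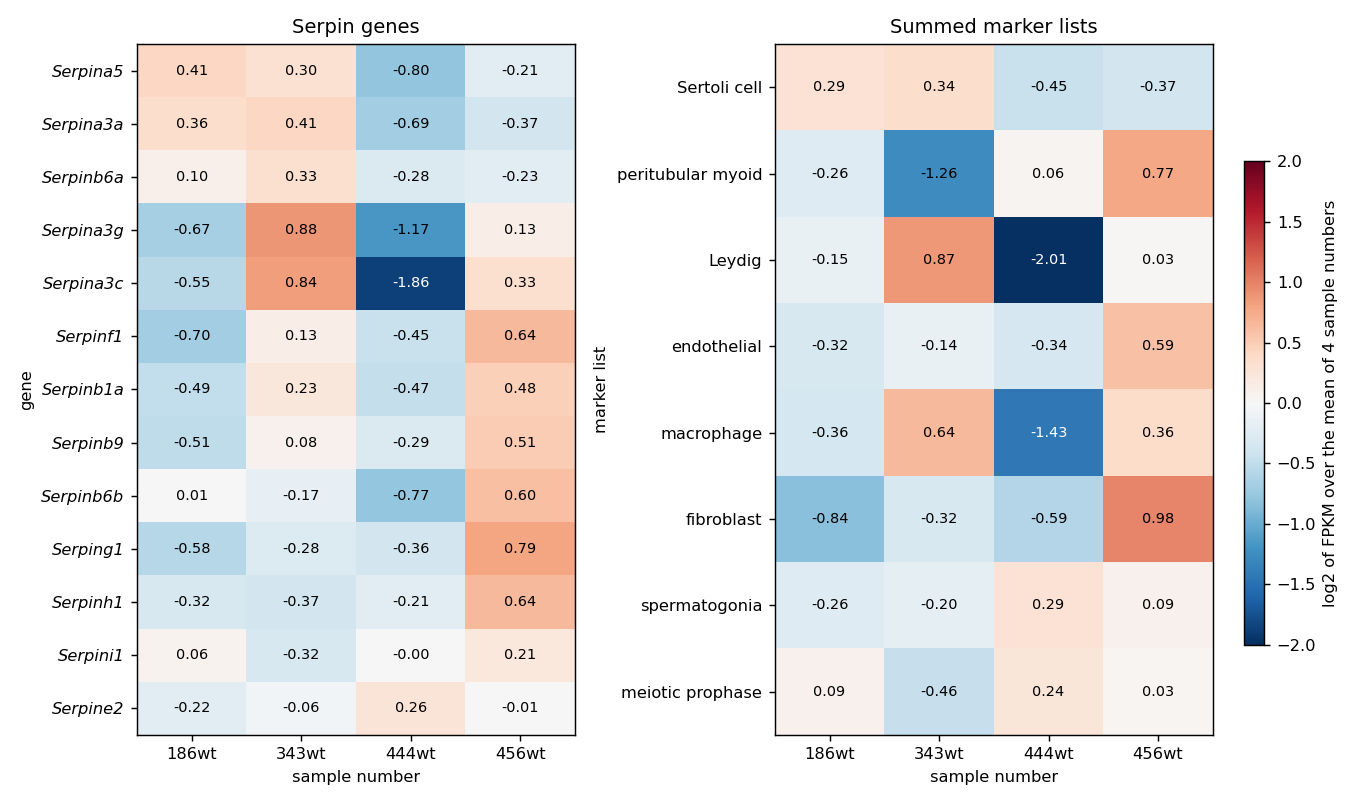
Log2 of the FPKM in each sample number over the mean of the 4, for 13 serpin genes (left) and for the summed FPKM of 8 marker lists (right), with red above and blue below the mean. In 444wt Serpina3c is at -1.86, the Leydig list at -2.01 and the macrophage list at -1.43. In 456wt Serping1 is at 0.79, and the fibroblast, peritubular myoid and endothelial lists are at 0.98, 0.77 and 0.59.

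The partners of the serpins were read from lists of known targets, receptors and clients. Of 42 target proteases and their receptors 29 were tested and 22 (75.9%) were called, 11 of them highest in 456wt. Of all genes tested 58.2% were called, or 75.8% of those at 1 FPKM or more, and 28% of called genes were highest in 456wt. The median log2 range of the list was 0.85, against 0.55 for the genes tested. Ctsl, a lysosomal cysteine protease, led the list with 876 FPKM and had 1127, 1060, 638 and 679 FPKM in 186wt, 343wt, 444wt and 456wt, while F9, Klkb1, Ctsg and Gzmk were at 0. Furin averaged 45.4 FPKM and C1s, the complement protease held by Serping1, 32.1 FPKM. C1s was also highest in 456wt, at 42.4 against 25.1 to 33.0 FPKM (log2 range 0.75 ± 0.0452 SE, adjusted p = 2.96e-07, limma).

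The list for uptake holds 6 receptors, which clear serpin complexes from the cell surface, and their chaperone Lrpap1. All 7 genes were expressed and 5 (71.4%) were called, Lrpap1 among them, against 75.8% of genes at 1 FPKM or more. Of the 7 genes 6 were at that level. The median log2 range of the list was 0.62, against 0.42 for all genes at that level. Lrpap1 averaged 124 FPKM, Lrp1 52.1 and Lrp8 48.4 FPKM. Of 19 collagens and folding partners of Serpinh1, 18 were called and 15 were highest in 456wt, against the same backgrounds of 75.8% and 28%, with a median log2 range of 0.72. The highest were Hspa5 (461 FPKM), P4hb (192) and Ppib (184), all proteins of the endoplasmic reticulum. Hspa5 was highest in 186wt, with 534 FPKM against 477 in 456wt. Col1a2, which is also on the fibroblast list, had 104, 118 and 122 FPKM in 186wt, 343wt and 444wt and 356 FPKM in 456wt (log2 range 1.77 ± 0.0227 SE, adjusted p = 9.06e-13, limma). Of 20 protease inhibitors of other families 19 were tested and 14 (73.7%) called. The backgrounds were 58.2% of genes tested and 75.8% of those at 1 FPKM or more, a level that 15 of the 20 reached. The median log2 range of the list was 0.53, against 0.55 for the genes tested and 0.42 for those at 1 FPKM or more. The highest inhibitors were Pebp1 (358 FPKM), Cst3 (229) and Spock2 (183), each above every serpin in mean level.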

How the data were processed

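RNA-seq of 12 libraries was analysed, with 4 sample numbers and 3 libraries each. The ChIP-seq, Affinity-seq and input samples were not analysed here. The authors used Bowtie 0.12.9 to align paired reads to transcripts of NCBI build 37 and RSEM 1.2.8 to compute the deposited FPKM. RSEM splits a read that several transcripts match. The values are rounded to 2 decimals. Strand setting is not given in the sources used here.

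Members were found by symbol and placed with GENCODE M1. Depth, which the table lacks, was estimated from the steps of low FPKM values in 237 genes (95% interval of the slope in the first library 14.4 to 14.6 M fragments). Sample numbers were compared with limma 3.58.1 in R 4.3.3 (lmFit, eBayes with trend, F-test, Benjamini-Hochberg adjustment over all genes tested) on log2(FPKM + 0.1), with a filter at a mean of 0.1 FPKM. The pseudocount understates differences of low genes. Python 3.11.15 with pandas 2.3.3, numpy 2.4.6, scipy 1.17.1 and matplotlib 3.10.9 gave the other values.

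Named were the highest member of each clade, members with at least 1 FPKM, and of each list the 3 highest genes and those at 0. A member that this rule covers is counted but not reported here by itself. Others (Serpinb2 and its neighbours, Serpina1b, Serpinf2, Serpina4-ps1, Serpina12, Serpina3b, Agt, Dmrt1, Dcn) were chosen after their values were seen. Members and lists were chosen with earlier results of these data known. Alternatives were other pseudocounts, filters, scaling, a replicate block and leaving out libraries or sample numbers. Protein sequences were not used here.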

Additional observations from a re-analysis of the deposited data

Results flagged for a closer look

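In 4 of 36 values compared over the 4 sample numbers, 1 sample number lay apart from the other 3 by Dixon's criterion, where about 1.8 would be flagged by chance alone, and in all 4 it was 456wt. Serpinh1 was at 107 FPKM in 456wt and at 53.0 to 59.3 FPKM in the others, so the mean of 68.6 FPKM was 55.7 FPKM without it. Serping1 was at 53.6 FPKM against 20.9 to 25.7 FPKM, and its mean of 31.1 FPKM was 23.6 FPKM without it. The summed fibroblast markers were at 995 FPKM against 281 to 403 FPKM. The summed endothelial markers were at 69.1 FPKM against 36.3 to 41.7 FPKM. The 4 values are not independent, since they share the libraries.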

How the results depend on the processing

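Between 14 and 16 serpin genes were called under every alternative, against 15 as reported. The count highest in 186wt fell from 2 to 1 with a pseudocount of 0.01, with a filter at 1 FPKM or with a replicate block, and was 1 to 4 when libraries or sample numbers were left out (4 without 343wt and 4 without 456wt). Without 456wt, 8 members were highest in 343wt and 3 in 444wt, against 4 and 1, and over all omissions these counts were 3 to 8 and 1 to 3. The count in 456wt was 7 to 10. Counting any value above 0 gave 47 expressed members and at least 1 FPKM gave 14, against 23. Without the highest member of each clade the shares were 33.6% for clade a, 42.3% for b, 23.0% for e, 1.08% for f and 0.0322% for i.

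The median of tested genes was 0.11 above the mean of all libraries in 456wt and 0.10 below it in 343wt on the log2 scale. With this removed, 14 of 15 called members kept their highest sample number (Serpini1 did not) and 11 their lowest. The exceptions for the lowest were Serpinb1a, Serpinb6a, Serpinh1 and Serpina1b.

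The library numbers did not pair the samples: the correlation of deviations was -0.041 to 0.030 for the same number and -0.034 to 0.040 for different numbers. With a replicate block 14 members were called, 1 of them highest in 186wt, and the member lost was Serpina1b (adjusted p = 0.0696, limma), which was also lost with a pseudocount of 0.01 (adjusted p = 0.107, limma). Levels under 0.1 FPKM rest on few fragments, 2.34 per library for a member of median transcript length.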

Other observations

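Of 10 hepatocyte plasma proteins 3 were above 0.1 FPKM, and most of their summed 8.88 to 14.3 FPKM was Ahsg, at 9.48 ± 3.0 FPKM (SD, n = 4), a member of the cystatin superfamily. Markers of neutrophils and cytotoxic lymphocytes summed to 8.14 FPKM in 456wt and to 0.640 to 2.13 FPKM in the other sample numbers. Most of the sum in 456wt was Camp, S100a9, S100a8 and Ngp, at 1.93, 2.17, 1.90 and 1.25 FPKM. Camp was also most of the sum in 186wt, at 1.14 FPKM, and was at 0.113 FPKM in 343wt and 0 in 444wt. Mpo, Ncr1 and Prf1 averaged 0.0742, 0.02 and 0.0142 FPKM. The lymphocyte markers Cd3e and Cd8a were highest in 186wt (0.717 and 0.137 FPKM, against 0.580 and 0.123 in 456wt) and were not called. S100a8 was at 0 in 186wt and 343wt, 0.0667 FPKM in 444wt and 1.90 FPKM in 456wt. Slpi, a secreted inhibitor of neutrophil elastase outside the serpin family, was at 0 in 186wt and 343wt, 0.0833 FPKM in 444wt and 2.15 FPKM in 456wt (adjusted p = 1.29e-06, limma). S100a8, Slpi, Ngp, Cd8a, Mpo, Ncr1 and Prf1 were chosen after their values were seen.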
